A study of Mus musculus with 4 samples.

Results

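The regions described here are 206 stretches of open chromatin in 7438 cells, a mouse mammary line, that were open without hormone and stood at least 2-fold higher in both comparisons in which only estradiol (E2, the natural ligand of the estrogen receptor, ER) was added. They were drawn from 103288 merged DNase-seq regions, of which 20687 were listed in all 4 libraries. DNase-seq finds stretches of DNA that are open to cutting by DNase I, and a listed region carries a maximum tag density, which is the height of its peak on a scale set by the authors. The regions were chosen by these densities: in each library the highest density within the merged region was divided by the median over the 20687 shared regions, and members had 2 ratios at 2 or more, that of E2 to untreated and that of Dex+E2 to Dex.

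Cells of the line make a GFP-tagged glucocorticoid receptor (GFP-GR) and a Cherry-tagged estrogen receptor (Ch-ER) from a promoter regulated by tetracycline, so all groups, untreated cells included, carry both fusion receptors, made from that promoter and not from their own genes. Tetracycline was withdrawn 24 h before hormone in all of them, in medium with charcoal-dextran serum. The 4 groups were untreated cells, cells given dexamethasone (Dex, a synthetic glucocorticoid) at 100 nM for 30 min, cells given 100 nM E2 for 30 min, and cells given both at 100 nM each for 30 min (Dex+E2). Each group had 1 library, so no value below could be compared with a spread between replicates and no p-value was computed. Since all 4 libraries took part in choosing the regions, every density of a member is a description of the choice. What the choice did not use is position, spacing, and which other regions lie nearby.

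As background, ER and GR are nuclear receptors that bind DNA once a ligand is present and recruit coactivators and chromatin remodelling complexes to enhancers and promoters. ER recognises estrogen response elements, often at distal enhancers, and part of its binding is known to fall on chromatin that other factors, such as AP-1 or forkhead proteins, keep open before hormone. An accessible site can then become more accessible when receptor and cofactors arrive. Positions below are in mm9 as the authors' lists give them. The DNA sequence of the regions, the genes beside them and the epithelial markers of the line were not analysed here, because the reference tables used follow another build.

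The lists held between 35496 regions (E2) and 65879 regions (untreated), and the median shared region had a deposited density of 30.1 untreated, 14.7 with Dex alone, 10.2 with E2 alone and 15.4 with both hormones. Densities were whole multiples of a step, read as 1 tag, and by these steps the summit of the median member held 62 tags untreated, 38 with Dex alone, 86 with E2 alone and 121 with both hormones. Intervals are at the 95% level, from tag counts (exact Poisson for a density, exact binomial for a ratio) or from counts of regions (Wilson), and cover counting error only.

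Among the 20687 shared regions, 7.89% (1632) were at least 2-fold higher in E2 over untreated and 1.84% (381) in Dex+E2 over Dex, and 0.996% (206) met both limits. The 206 members were thus 12.6% of the longer list and 54.1% of the shorter one. These percentages follow from the rule and are given as its background only. The comparisons share no library. Close to the limit, members just inside it were chr1:172949410-172950451 (2.02-fold without Dex and 2.0-fold with Dex), chr4:106450818-106451849 (3.40-fold and 2.0-fold) and chr2:25395851-25396708 (2.17-fold and 2.01-fold). Just outside lay chr18:78045362-78046015 (2.09-fold and 1.99-fold), chr14:70334573-70335487 (3.22-fold and 1.99-fold) and chr11:31817606-31818308 (1.99-fold and 2.03-fold). The edge of the group is therefore a matter of a few tags, and the members grade into the regions outside it.

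**Figure D1:**
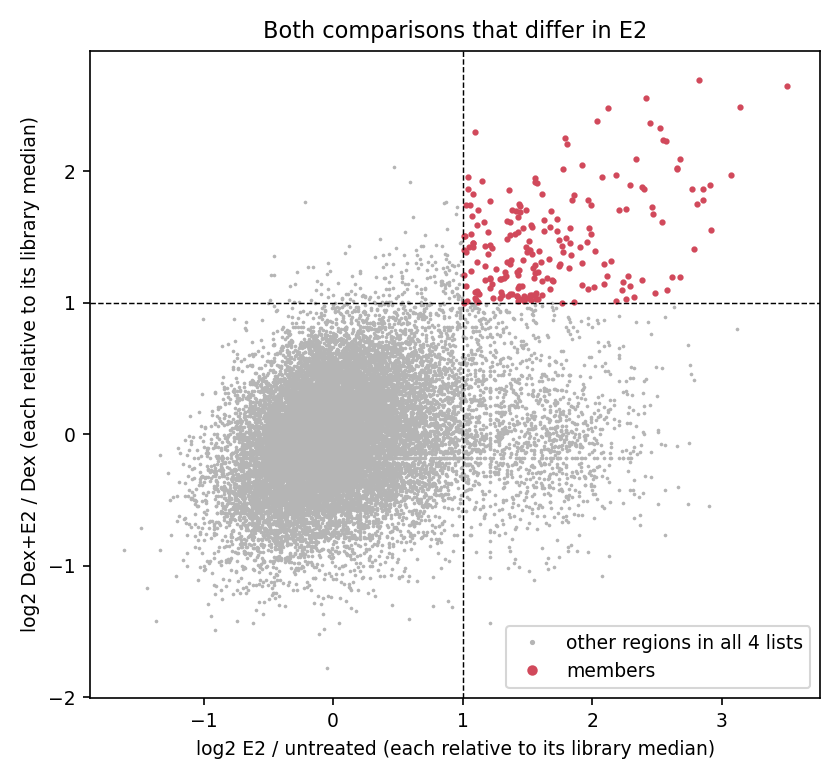
Log2 ratio of maximum densities for E2 over untreated (x axis) and Dex+E2 over Dex (y axis), each density divided by its library's median, for 20687 regions (grey) with the 206 members in red; dashed lines mark the 2-fold limits. The members fill the upper right corner without a gap at the limits, and a grey band to the right of the vertical line holds regions that were 2-fold higher without Dex only.

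Members were weaker than most shared regions in the libraries without E2 and stronger than most in those with it. Their deposited density ran from 3.06 to 62.5 with a median of 15.8 in untreated cells, against a median of 30.1 over all shared regions. After Dex it ran from 2.20 to 32.3 with a median of 9.31, against 14.7. After E2 the range was 3.0 to 45.2 and the median 17.2, against 10.2. After Dex+E2 the range was 4.76 to 86.4 and the median 27.5, against 15.4. Untreated density was below the shared median in 188 of 206 members (91.3%) and below the shared lower quartile in 133 (64.6%). After E2, 173 members (84.0%) were above the shared median of that library, and after Dex+E2 188 (91.3%) were. Pooled over members, the full ranges overlapped between libraries. The spans from lower to upper quartile overlapped between untreated (10.7 to 21.9) and E2 (11.8 to 22.5). Those of Dex (7.10 to 12.0) and Dex+E2 (20.7 to 36.9) did not.

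**Figure D2:**
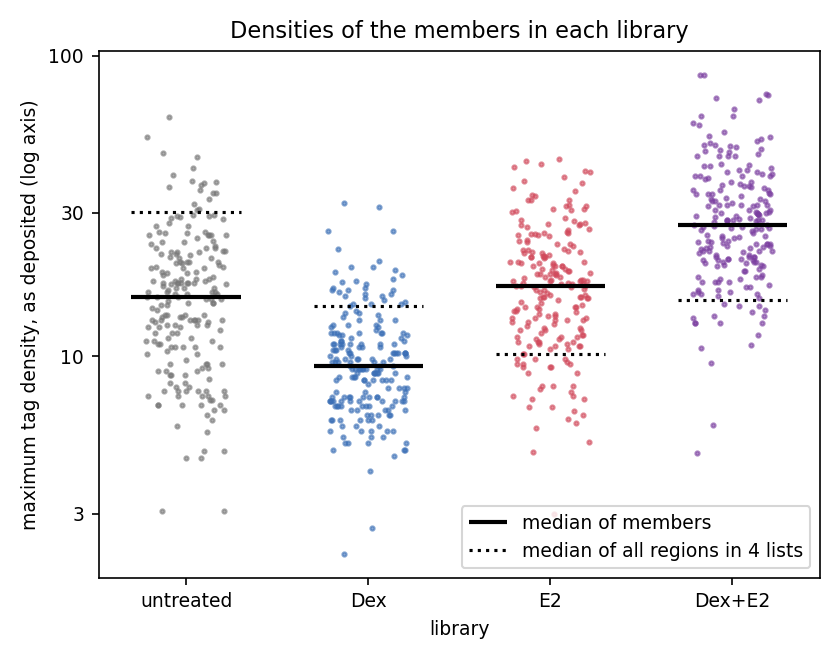
Deposited maximum tag density (log axis) of the 206 members in each of the 4 libraries, 1 point per member; solid lines are member medians and dotted lines the medians of all 20687 shared regions. Member medians of 15.8 (untreated) and 9.31 (Dex) lie below the dotted lines, and those of 17.2 (E2) and 27.5 (Dex+E2) lie above them.

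Relative to the library medians, the median member was 2.93-fold higher in E2 over untreated (2.01 to 11.3) and 2.65-fold higher in Dex+E2 over Dex (2.0 to 6.46). At least 3-fold in both comparisons were 42 members (20.4%), at least 4-fold 14 (6.80%) and at least 5-fold 6 (2.91%). The counting interval of the ratio lay above 1 in both comparisons for 204 of 206 members. It lay above 2 in both for 60, in E2 over untreated for 110 and in Dex+E2 over Dex for 82. For the majority, then, tag counting alone does not place the true ratio of these libraries above the limit in both comparisons. The intervals use the same tag counts that chose the members and make no allowance for that choice. A ratio chosen at 2 or more mostly has an interval above 1 for that reason, so these counts are no support for the members.

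The member with the largest smaller ratio was chr12:25408067-25409727, at 18.9 untreated, 12.7 with Dex alone, 45.2 with E2 alone and 86.4 with both hormones. Its ratios were 7.07-fold (5.41 to 9.32) without Dex and 6.46-fold (4.83 to 8.81) with Dex, and this region also had the highest Dex+E2 density of all members. Next came chr12:16797065-16797819, at 9.44, 10.0, 36.2 and 66.2 in the same order of libraries. Its E2 ratios were 11.3-fold (7.91 to 16.6) and 6.28-fold (4.52 to 8.94), the former the highest of any shared region. Greb1, a gene known for its induction by estrogen in mammary cells, is on chromosome 12 as well, as background, and its distance from the region was not measured. At chr11:53128015-53128849 densities were 6.89, 8.33, 20.6 and 49.0, so that both libraries with E2 stood clear of both without it. Its ratios were 8.83-fold (5.73 to 14.0) and 5.61-fold (3.89 to 8.30).

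The next member, chr13:3476997-3477750, had 13.3 untreated, 5.14 with Dex alone, 24 with E2 alone and 31.8 with both hormones. It was followed by chr15:77970307-77971230, with 22.2, 11, 41 and 59.7. At chr7:74606585-74607447 the densities were 13.5, 10.3, 26.4 and 54.2. All 3 of these kept the order of the leading region, with Dex lowest, then untreated, E2 and Dex+E2. The same order was seen at chr16:93733011-93734112 (11.2, 6.37, 22.2 and 31.5), chr3:136102656-136103636 (21.2, 9.80, 42.6 and 48.3) and chr3:104473769-104474734 (13.3, 5.39, 19.6 and 31.5). It was seen again at chr2:166224470-166225452 (12.5, 7.35, 21.4 and 32.9) and at chr3:129763610-129764932 (7.65, 7.10, 16.6 and 31.8).

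Of the remaining 9 among the leading 20, chr3:96992617-96993523 gained mainly with both hormones, at 7.91, 5.39, 11 and 29.5. On chromosome 11, chr11:76343008-76343833 stood at 12.0, 12.0, 25.6 and 51.3, nearly the same in both libraries without E2. The region chr11:73017094-73018026 went from 6.89 untreated to 11.3 with Dex alone, 19.6 with E2 alone and 46.5 with both hormones, so each hormone alone was above untreated as deposited. At chr12:103871126-103872098 the values were 8.42, 8.82, 18 and 37.4. The strongest untreated region of these 9 was chr1:188407550-188408408, at 21.4, 11.3, 33.0 and 46.5. The other 4, chr3:34230525-34231516, chr9:57630012-57631154, chr16:21382021-21382997 and chr10:59283737-59284552, reached 20.4, 22.6, 34.4 and 21.2 after E2 and 25, 29.7, 43.1 and 32.4 after Dex+E2. In all of the leading 20, Dex+E2 gave the highest deposited density and E2 the next highest.

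**Figure D3:**
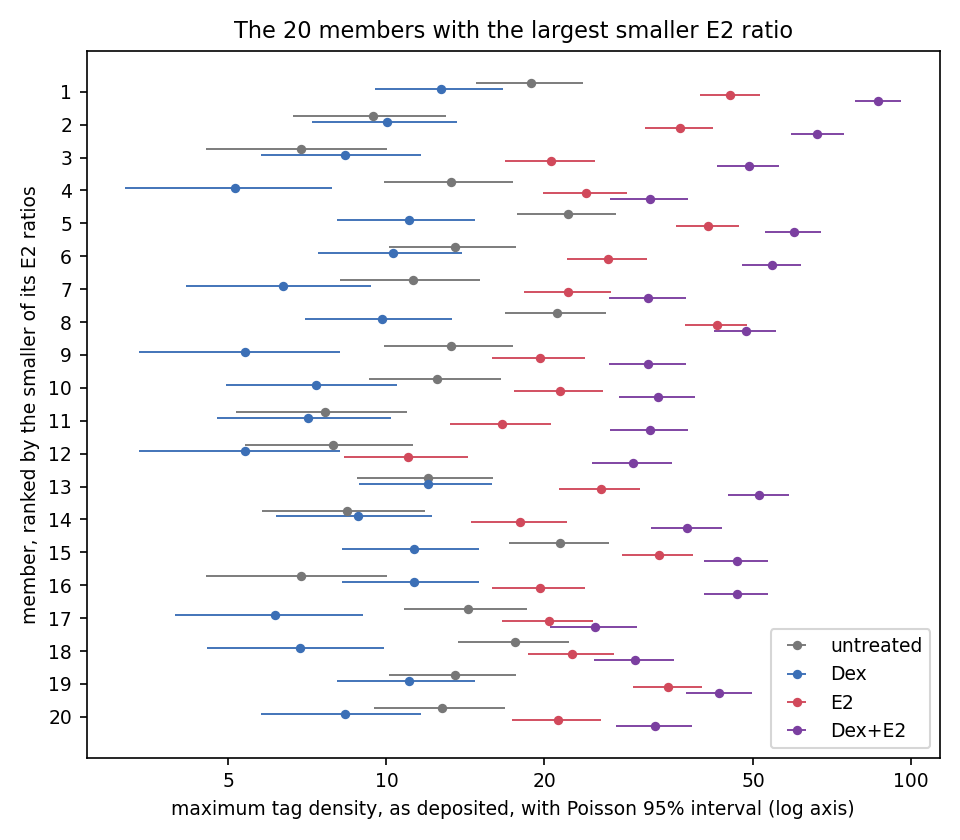
Deposited maximum tag density with its exact Poisson 95% interval (log axis) for the 20 members with the largest smaller E2 ratio, ranked from the top, in the untreated (grey), Dex (blue), E2 (red) and Dex+E2 (purple) libraries. Both libraries with E2 lie to the right of both without it in every row, while intervals overlap between E2 and Dex+E2 in 6 rows and between untreated and E2 in 4.

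How far a member rose in E2 over untreated depends on the scale. The median shared density was 0.339 times as high after E2 as in untreated cells, so a member needed a deposited E2 density of only 0.678 times the untreated one to reach 2-fold. For Dex+E2 over Dex the corresponding value was 2.10, so that in this comparison each of the 206 members was at least 2.10-fold higher as deposited. On the deposited scale 18 members (8.74%) were at least 2-fold higher after E2 than untreated, where 0.160% of all shared regions were. A further 81 (39.3%) were between 1-fold and 2-fold, and 107 (51.9%, 45.1 to 58.7) were lower after E2 than untreated. Across all shared regions 96.6% were lower after E2, and their median deposited ratio was 0.339 against 0.993 in members. A 2-fold gain over untreated cells was therefore seen as deposited in 18 of the 206, a smaller gain in 81, and in 107 a density that fell less than at most shared regions. With 1 library each, a difference between the untreated and E2 libraries as a whole and an effect of E2 cannot be told apart.

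After both hormones the deposited density was above the untreated one in 189 of 206 members (91.7%), against 7.76% of all shared regions. It was at least 2-fold above in 81 members (39.3%), where 1.10% of all shared regions were. In 187 members (90.8%) Dex+E2 was the library with the highest deposited density, in 17 it was untreated and in 2 E2. Over all shared regions the untreated library was highest in 90.1%. Divided by the library medians, the highest value was in Dex+E2 for 122 members (59.2%) and in E2 for 84 (40.8%), against 21.6% and 28.4% of all shared regions; the rule leaves no other library able to be highest.

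The 18 members that were 2-fold higher as deposited had median densities of 9.05 untreated, 10.2 with Dex alone, 23.1 with E2 alone and 41.4 with both hormones. The 81 intermediate members had 13.0, 9.06, 18.2 and 26.3. The 107 that were lower after E2 had 18.4, 9.06, 15.8 and 26.8, and 90 of them were above untreated after both hormones. Median densities after Dex and after Dex+E2 were thus close in the latter classes, which differed mainly in the untreated height. Retained regions, defined as those that kept 0.8 or more of their untreated density with each hormone treatment, with no upper limit, numbered 54 among members (26.2%), against 4.23% of shared regions. The 54 had median densities of 8.67, 9.92, 13.1 and 26.2. A rise above untreated with both hormones is fixed for them, since Dex kept 0.8 or more and Dex+E2 was at least 2.10-fold above Dex. Division by the medians places every retained region above 2-fold in E2 over untreated, so for these 54 only Dex+E2 over Dex decided the choice. Their share therefore follows in part from the rule and is no result about the members. Among the 1426 regions that met the limit in E2 over untreated only, 822 (57.6%) were retained regions. Of the 18 members that were 2-fold higher as deposited, 16 were retained regions, so leaving these out removes most of the largest gains as deposited. The 54 had median log2 E2 ratios of 2.06 without Dex and 1.28 with Dex, and the other 152 had 1.44 and 1.43.

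**Figure D4:**
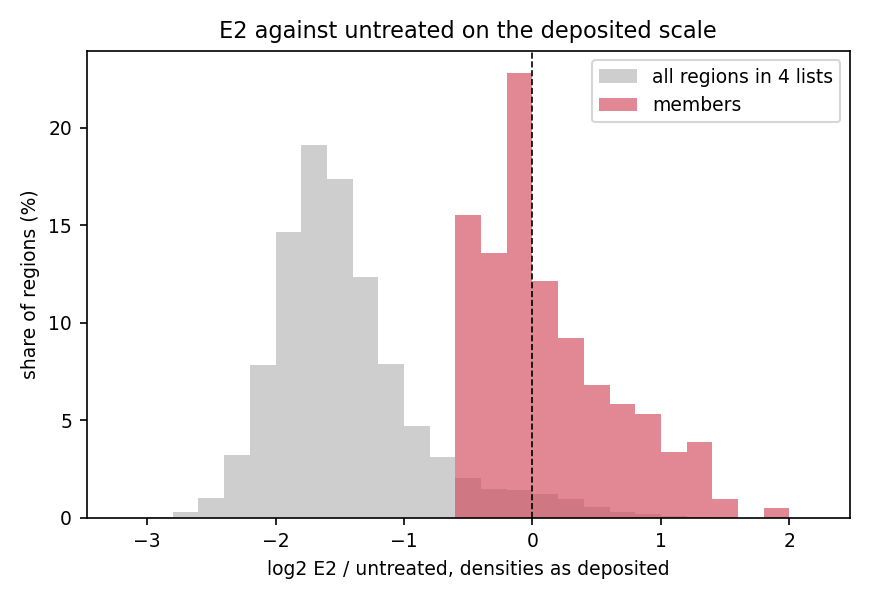
Distribution of the log2 ratio of deposited densities, E2 over untreated, for the 206 members (red) and all 20687 shared regions (grey), each as a percentage of its group; the dashed line marks equal densities. Most shared regions lie left of the line, and members begin at a ratio of 0.681 and lie on both sides of it with a median of 0.993.

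The strongest members in untreated cells were chr2:167208882-167209859 and chr4:45479953-45481055. The former had 62.5 untreated, 17.4 with Dex alone, 43.6 with E2 alone and 71.0 with both hormones, and the latter 53.8, 26.2, 37.8 and 74.0. At both, E2 alone was below untreated as deposited and Dex+E2 was above it. The same held at chr3:104591926-104594362 (47.4 untreated, 41.2 after E2, 58.8 after Dex+E2) and chr10:79627496-79629156 (42.3, 33.2 and 49.7). At chr9:34800937-34801992 the untreated and Dex+E2 values were nearly equal (45.9 and 46.3, with 31.6 after E2). At the other end, chr13:66798782-66799760 and chr2:118270177-118270763 had 3.06 in untreated cells, which is 12 tags. The former reached 3.0 with E2 alone and 5.90 with both hormones, and the latter 5.2 and 4.76. Further weak members were chr6:91009665-91010303 (4.59 untreated, 7.60 after E2, 9.53 after Dex+E2) and chr5:119396080-119396865 (4.85, 9.20 and 18.4). The remaining one, chr18:63709950-63710718, had 4.59, 4.80 and 17.2. Ratios of such weak members rest on few tags.

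Only E2 ratios were used to choose the members, so no statement on whether Dex did less than E2 there can be drawn. The median Dex ratio relative to the library medians was 1.19-fold (0.565 to 5.29) without E2 and 1.08-fold (0.606 to 3.41) with E2. Of the 206, 33 (16.0%) were at least 2-fold higher in Dex over untreated, where 6.69% of all shared regions were, and 9 (4.37%) in Dex+E2 over E2, where 1.78% were. The untreated library is the reference of both the E2 and the Dex ratio, and Dex+E2 is the numerator of the others, so these counts share libraries with the rule. No member was 2-fold lower with Dex in either comparison, which allows a share of up to 1.83% (Wilson), and only 0.595% and 1.04% of all shared regions were. Both Dex ratios were above 1 in 101 members (49.0%) and both below 1 in 43 (20.9%), against 25% and 29.2% of all shared regions. The sign of the median Dex ratio with E2 depended on the scaling: its log2 value was 0.10 with division by the medians, 0.87 with densities as deposited, -0.036 with retained regions left out and -0.014 with quantile normalization, each over the regions then chosen.

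Among members, 5 were also at least 2-fold higher in both Dex comparisons, which is 2.43% of the members and 1.75% of the 285 regions that meet the Dex rule. Over all shared regions 1.38% met the Dex rule, which lies within the interval of the members' share (1.04 to 5.56). The largest Dex ratios were at chr11:106822528-106823481, with 7.40 untreated, 19.1 with Dex alone, 10.2 with E2 alone and 52.6 with both hormones. Its ratios were 5.29-fold and 3.41-fold for Dex and 4.07-fold and 2.62-fold for E2. At chr15:59630626-59631628 the densities were 17.6, 32.3, 22.6 and 74.4, and at chr12:74086879-74087647 they were 8.93, 14.9, 10.8 and 40.4. The others were chr5:67696535-67697361 (4.85, 9.55, 5.8 and 24) and chr18:63709950-63710718 (4.59, 5.63, 4.80 and 17.2). In all 5 the Dex+E2 value was the highest and exceeded the Dex and E2 values added together. This follows from meeting both rules and is no result about these regions. These 5 regions were named after their values were seen. No region met both rules with densities as deposited or with retained regions left out.

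Whether E2 acted alike in the presence and absence of Dex can be described but not tested with these libraries. The log2 E2 ratio with Dex minus that without Dex had a median of -0.19 (-1.48 to 1.20) over members and -0.02 over all shared regions. With densities as deposited the median was 0.62 over the 19 regions then chosen, so this direction too depends on the scaling. The ratio was larger without Dex in 144 members (69.9%, 63.3 to 75.8), against 51.9% of shared regions. The median difference was -0.64 in the 54 retained members and -0.064 in the other 152. The definition of retained regions by itself sets a high E2 ratio without Dex and so favours a negative difference. This split is therefore no result about the retained members. Differences of more than 2-fold were near their share over all shared regions and are no result about the members. Higher by that much without Dex were 18 members (8.74%), where 8.01% of shared regions were. With Dex it was 1 member (0.485%), where 1.06% of shared regions were. That 1 region, chr11:100256055-100257851, had 19.9 untreated, 9.80 with Dex alone, 14.4 with E2 alone and 50.6 with both hormones, or 2.14-fold without and 4.92-fold with Dex. Next in this direction came chr2:167208882-167209859 (2.06-fold and 3.89-fold), chr5:114114085-114115335 (2.06-fold and 3.65-fold), chr9:21494182-21495016 (2.22-fold and 3.80-fold) and chr8:73157657-73158700 (2.12-fold and 3.55-fold).

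In the opposite direction chr2:38286513-38287274 led, with 5.61 untreated, 6.12 with Dex alone, 12.2 with E2 alone and 14.7 with both hormones, or 6.42-fold without and 2.29-fold with Dex. The region chr17:21673450-21674295 (15.0, 17.6, 30.4 and 39.7) was 5.96-fold and 2.14-fold higher. At chr19:38445082-38445963 the ratios were 6.14-fold and 2.29-fold, at chr5:119396080-119396865 5.6-fold and 2.10-fold, and at chr17:27689340-27690311 6.89-fold and 2.66-fold. In each of these 5, all of them retained regions, deposited Dex density was above the untreated one. The ranking favours this, because the difference between the E2 log2 ratios equals that between the Dex log2 ratios with and without E2. The scaled Dex+E2 density exceeded the sum of the scaled Dex and E2 densities minus the untreated one in 108 members (52.4%, 45.6 to 59.1), against 48.2% of shared regions. That share is near the background and is no result about the members.

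Members were somewhat narrower than other shared regions, with a median merged width of 866.5 bp (586 to 2436) against 1009 bp. In 184 of 206 members (89.3%) each library had a single listed region, against 85.3% of shared regions. In these 184 the listed region had a median width of 697.5 bp untreated, 575.5 bp after Dex, 717.5 bp after E2 and 818.5 bp after Dex+E2. It was wider after E2 than untreated in 104 of the 184 (56.5%, 49.3 to 63.5), where 5.48% of the comparable shared regions were wider. With Dex+E2 it was wider than with Dex in 174 (94.6%, 90.3 to 97.0), against 41.9%. A width follows from the same tags as the density and is not independent of the rule. By the average density of a region in place of its maximum, the median log2 ratio over members was 1.42 without Dex and 1.32 with Dex, and 130 members (63.1%) met the 2-fold limit in both comparisons.

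Position was not used by the rule. Members lay on 19 chromosomes, with the highest numbers on chromosome 9 (19 members, 1.86% of its shared regions) and chromosome 11 (18 members, 1.15%). The fewest were on chromosome 14 (3 members, 0.440%), and none of the 513 shared regions on chromosome X was a member. Another member lay within 50 kb of 12 members (5.83%, 3.36 to 9.90), in 6 pairs, and a member lay that near to 2.66% (2.44 to 2.89) of the 20481 shared regions that were not members. Within 500 kb it was 39 members (18.9%, 14.2 to 24.8), against 15.4% (14.9 to 15.9). These differences were not tested. The median number of shared regions within 50 kb was 2 around members and 2 around all shared regions. Most members thus had no other member within either distance.

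The closest pair was chr1:193452163-193452950 and chr1:193456302-193457121, separated by 3.35 kb. The former had 18.1 untreated, 16.2 with Dex alone, 16.6 with E2 alone and 40.4 with both hormones, and the latter 16.3, 12.0, 14.4 and 41.1, so both rose above untreated only after both hormones. A further pair, chr6:108394212-108395630 and chr6:108401278-108402895, lay 5.65 kb apart, with 31.8 and 19.998 with E2 alone and 55.6 and 23.4 with both hormones. The largest group in which neighbours lay within 500 kb had 3 members on chromosome 16. These were chr16:21382021-21382997 (34.4 after E2, against 13.5 untreated), chr16:21829637-21830306 (10.8 against 11.5) and chr16:22118756-22119534 (23.6 against 20.7). On the deposited scale the first of these rose 2.54-fold after E2, while the others were at 0.941 and 1.14 times untreated, so the size of the ratio differed within this group. In the closest pair the ratios relative to the medians were alike, at 2.70-fold and 2.60-fold without Dex and 2.38-fold and 3.26-fold with Dex.

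Regions that were listed only with E2, in the E2 and Dex+E2 lists and in neither other, lie outside the 20687 regions to which the rule was applied. Of the 206 members, 39 (18.9%, 14.2 to 24.8) had 1 of these 1362 regions within 50 kb, against 12.5% of all shared regions. Within 10 kb it was 24 members (11.7%, 7.96 to 16.7), against 3.41% (3.17 to 3.67), and within 1 kb 6 members (2.91%, 1.34 to 6.21), against 0.503%. Regions listed only with Dex, in the Dex and Dex+E2 lists, lay within 10 kb of 14 members (6.80%, 4.09 to 11.1), against 4.52% of shared regions. Around the 285 regions that meet the Dex rule the order was the other way: 4.91% (2.95 to 8.08) had an E2-only region within 10 kb and 11.6% (8.36 to 15.8) a Dex-only one. Regions listed in untreated and Dex cells only were near 4.37% of members (2.32 to 8.09), against 9.90% of shared regions. The other patterns with E2 did not all go the same way. Regions listed in the E2 library alone, 7200 in number, lay within 10 kb of 4.37% of members (2.32 to 8.09), against 5.79% of shared regions. The 11919 regions listed in the Dex+E2 library alone lay near 20.4% (15.5 to 26.4), against 11.9%. The 1220 listed in untreated and E2 cells only lay near 2.43% (1.04 to 5.56), against 2.46%. The lists come from the same 4 libraries as the rule, and the differences between these shares were not tested.

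The 24 E2-only regions within 10 kb of a member had median densities of 7.40 with E2 alone and 12.5 with both hormones, against 6.6 and 8.17 over all 1362. The densest of them with both hormones, chr9:55208511-55209315, had 15.0 with E2 alone and 23.8 with both hormones and lay 315 bp from the member chr9:55209630-55210622 (15.8 untreated, 6.37 with Dex alone, 11.6 with E2 alone and 20.2 with both hormones). At chr17:31824898-31825770, which had 16.6, 10.3, 22 and 37.2, an E2-only region with 15.4 and 21.1 lay 770 bp away. The member chr16:21829637-21830306 had an E2-only region at 439 bp with 11.2 and 23.1, close to the member's own 10.8 and 18.1. At these 3 sites, named after their values were seen, a region open before hormone and a region listed only with E2 stood side by side. The E2-only region was the higher one at the chromosome 9 and 16 sites and the lower one at the chromosome 17 site, in both libraries with E2. Those on chromosomes 9 and 16 were exceptions: at all others of the 24 the E2-only region was the lower one in both libraries. The closest, 103 bp from chr14:75405439-75406153, had 4.60 with E2 alone and 10.9 with both hormones, against 19.0 and 20.9 in the member.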

How the data were processed

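The authors deposited 1 list of hypersensitive regions per DNase-seq library, with the maximum and average tag density (signal values, per the file headers), a Z score and its p-value. The deposited Z score and p-value were not used. Per the submitters' processing notes CASAVA 1.8 and mm9 apply, without a stated role. The aligner, the region caller and the scaling total are not stated in any source used here. Every maximum density was a whole multiple of 1 step per library within 0.05 tags (0.255, 0.245, 0.200 and 0.227 for untreated, Dex, E2 and Dex+E2).

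Overlapping or touching regions of the 4 lists were joined, and the highest density per library was divided by that library's median over regions in all 4 lists. Under a shared scaling total the steps would put depth, as a multiple of untreated, at 1.04 (Dex), 1.28 (E2) and 1.12 (Dex+E2). Distances are between edges. Named regions are the 20 members with the largest smaller E2 ratio, the extremes of untreated density, those at the limit, the extremes of the difference between E2 ratios, and the group with the most members within 500 kb; other named regions were chosen after seeing their values. The members, lists and comparisons were chosen with earlier results of these data known. A planned description of motifs, start sites, gene lists and cell markers needs an mm9 genome or annotation and was not run here. The functions were tested on simulated data with planted regions. Alternatives covered scaling, density measure, limit, merging and filters. Computation used SciPy 1.17.1, pandas 2.3.3 and NumPy 2.4.6 in Python 3.11.15, and plots Matplotlib 3.10.9.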

Additional observations from a re-analysis of the deposited data

How the results depend on the processing

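The 206 members became 19 with densities as deposited (18 of them members), 681 at a 1.5-fold and 14 at a 4-fold limit. The other 10 alternatives gave 160 to 206, with 168 when retained regions were left out, 195 by quantile normalization (183 of them members) and 160 by average density (130 of them members). With densities as deposited, the median log2 ratios over the regions then chosen were 1.22 (E2 without Dex), 1.94 (E2 with Dex), 0.089 (Dex without E2) and 0.87 (Dex with E2), and the difference of the E2 ratios turned to 0.62. In the same order, the main values were 1.55, 1.40, 0.25, 0.10 and -0.19. Without retained regions the E2 ratio without Dex was 1.47, the Dex ratios were 0.041 and -0.036, and the difference was -0.076. Quantile normalization gave 1.44 for E2 without Dex and Dex ratios of 0.031 and -0.014, so the sign of the Dex ratio with E2 depends on the scaling. At the 1.5-fold limit the E2 ratios were 1.10 and 0.94. At 4-fold they were 2.56 and 2.35, the Dex ratios 0.47 and 0.31, and the median width 944 bp. With a density of at least 20 required in some library, the E2 ratio with Dex was 1.48. The 5 members that also met the Dex rule became 0 as deposited, without retained regions and at 4-fold, 3 by quantile normalization and 62 at 1.5-fold. The 12 members with another within 50 kb became 0 as deposited and at 4-fold, 4 without retained regions, 4 by average density and 78 at 1.5-fold. The share with an E2-only region nearby was 11.7% at 10 kb and 27.2% at 100 kb. The cause of these shifts was not tested. By construction, though, other limits choose other regions, and leaving out retained regions removes all 5 members that met the Dex rule. Alternatives for motif windows and start-site distances were not run. No paired analysis was possible because each condition has 1 library and no replicate numbers are shared. An additive fit of E2 and Dex over the 4 libraries was not run, since both E2 comparisons chose the members. The weakest members, at 12 tags untreated, have the least certain ratios.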

Other observations

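Regions that met the limit in 1 of the E2 comparisons only were not members and differed between the comparisons. Those 2-fold higher in E2 over untreated only numbered 1426, and their median log2 ratio in Dex+E2 over Dex was 0.03. Their median deposited densities were 8.67 untreated, 8.20 with Dex alone, 8.20 with E2 alone and 9.30 with both hormones, nearly level across libraries, and 822 of them (57.6%) kept 0.8 or more of their untreated density with each hormone treatment. Those 2-fold higher in Dex+E2 over Dex only numbered 175, with medians of 26.5 untreated, 9.80 with Dex alone, 12.8 with E2 alone and 22.2 with both hormones, and none was of that kind, which follows from the rule, since division by the medians puts all such regions above 2-fold in E2 over untreated. Relative to the library medians, their median log2 ratio in E2 over untreated was 0.57. On that scale they leaned the same way as a group without reaching the limit. As deposited, their median was lower with E2 alone (12.8) than untreated (26.5).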
